A study of Rattus norvegicus with 18 samples.

Results

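The interleukin-1 (IL-1) family on these arrays comprised 9 genes, which were taken by gene name from a list drawn up with earlier results of the same arrays known. They were the ligands Il1a, Il1b and Il18, the receptor antagonist Il1rn, the receptors Il1r1 and Il1rl1 with their shared partner Il1rap, the decoy receptor Il1r2 and the IL-18 binding protein Il18bp. All 9 were found among the 35279 gene names of the array, on 14 of its 41012 probes, and all 9 were among the 27199 gene names tested. The rats were male adult Sprague-Dawley animals, of which a piece of the left sciatic nerve was resected under anaesthesia. The nerve just proximal to the cut was hybridized for 6 time-points, the first at 0 h and the others 0.5, 1, 3, 6 and 9 h later, on 3 arrays each. The 0 h nerve served as the reference, and no sham-operated group was among the 18 arrays. Neither the labels nor the methods say if rats were pooled for an array, so the spread between arrays may be partly technical.

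IL-1α and IL-1β bind the same receptor, IL1R1, which signals only after it has recruited IL1RAP. Signaling runs through MYD88 and the IRAK kinases to NFκB and switches on cytokine, chemokine and protease genes. IL1RN occupies the receptor without signaling, IL1R2 captures IL-1 on a receptor that lacks a signaling domain, and IL18BP captures IL-18 in the extracellular fluid. Il1rl1 (also ST2) gives both a membrane receptor for IL-33, which uses IL1RAP too, and a shorter secreted form that ends earlier in the gene and traps IL-33. In injured peripheral nerve, IL-1 is known for its part in the entry of macrophages and in the response of Schwann cells (SCs) to axon loss.

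The array carried a separate probe of 60 bases for each of the listed transcript variants of Il1rl1, and these probes gave different results. The variant 1 probe lay at chr9:39617225-39617284 on the rn4 build. The variant 2 probe lay 1.99 kb further along the same strand, and its bases were spread over chr9:39619275-39620742, a span longer than the probe, so that it crosses an exon junction. The files did not say which variant encodes the secreted form, so neither probe is read here as the membrane receptor or as the trap. The first 30 bases of the variant 1 probe and the whole variant 2 probe, as the files give them, are:
Il1rl1 variant 1 probe: tttttaattcacctgttgctattcaaatca
Il1rl1 variant 2 probe: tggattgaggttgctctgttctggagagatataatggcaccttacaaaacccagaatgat
The receptor genes Il1r2, Il1r1 and Il1rl1 were neighbors, and their probes fell within 304 kb of chromosome 9. The probes of Il1a and Il1b were 49.6 kb apart on chromosome 3. Those of Il18, Il18bp and Il1rap lay on chromosomes 8, 1 and 11.

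The ligand Il1b had its largest step by 0.5 h. Its antagonist Il1rn and the variant 1 probe of Il1rl1 had theirs between 1 h and 3 h. The promoters of these 3 members are shown for that reason. They are the 250 bases before the start given by RefSeq on the GRCr8 build, read 5′ to 3′ on the strand of the gene. Capitals mark GGG followed by any 5 bases and CC (a loose form of the NFκB element) and TATAAA (the TATA box), searched on both strands together with TGANTCA (the AP-1 element).
Il1b, chr3:137036582-137036831, minus strand: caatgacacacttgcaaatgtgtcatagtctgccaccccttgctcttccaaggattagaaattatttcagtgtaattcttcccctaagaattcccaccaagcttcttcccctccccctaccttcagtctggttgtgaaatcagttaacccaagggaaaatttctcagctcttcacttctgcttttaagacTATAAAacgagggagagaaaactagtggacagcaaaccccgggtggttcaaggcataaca
Il1rn, chr3:27520072-27520321, plus strand: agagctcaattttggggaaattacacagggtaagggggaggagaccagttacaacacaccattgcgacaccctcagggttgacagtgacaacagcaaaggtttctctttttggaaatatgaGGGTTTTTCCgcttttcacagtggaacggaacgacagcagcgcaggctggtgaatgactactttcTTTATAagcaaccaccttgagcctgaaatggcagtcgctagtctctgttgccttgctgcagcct
Il1rl1, chr9:50203388-50203637, plus strand: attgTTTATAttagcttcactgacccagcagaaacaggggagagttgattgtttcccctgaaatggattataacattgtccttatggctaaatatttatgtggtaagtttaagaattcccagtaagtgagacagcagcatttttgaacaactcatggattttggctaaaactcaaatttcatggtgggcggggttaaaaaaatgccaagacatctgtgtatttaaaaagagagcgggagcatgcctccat
Among all 33469 promoters of this length, 42.3% held the NFκB form, 12.9% held TATAAA and 6.34% held TGANTCA. The Il1rn window held 1 match to the NFκB form, starting 129 bases before the start, and the windows of Il1b and Il1rl1 held no such letters. TATAAA started 60 bases before the start in Il1b, on the strand of the gene. In Il1rn and Il1rl1 it lay on the opposite strand, printed here as TTTATA, starting 64 and 246 bases before the start. TGANTCA was in none of these 3 windows. RefSeq entries were matched by symbol for 8 of the 9 genes, of which 5 held the NFκB form (Il1rn, Il1r1, Il1rap, Il18 and Il18bp), beside 42.3% of all promoters, 4 held TATAAA (Il1a, Il1b, Il1rn and Il1rl1) and 1 held TGANTCA (Il1a).

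Levels are given as log2 processed signal relative to the 75th percentile of the array, so that 0 stands for a probe at that percentile. They are read over time within a probe and never between probes, which differ in how well they bind. A probe is called well above background where the scanner software marked it so. The share of spots well above background ran from 65.9% to 93.5% of an array and was highest in 6 h replicate 1 (93.5%), 9 h replicate 3 (86.4%) and 3 h replicate 3 (82.3%). Scanning took 3 days, of which the first held the 0 h and 0.5 h arrays, the last held only 9 h replicate 3, and the day between them held the rest. Changes from 0 h to 1 h or later therefore cannot be told apart from scan day, and steps from 1 h, within 1 scan day apart from 9 h replicate 3, are given for the 9 genes. They are not given for the differences between genes or for the other pathway genes. In whole nerve, a change in the number of cells of a type and a change in RNA per cell cannot be told apart.

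**Figure D1:**
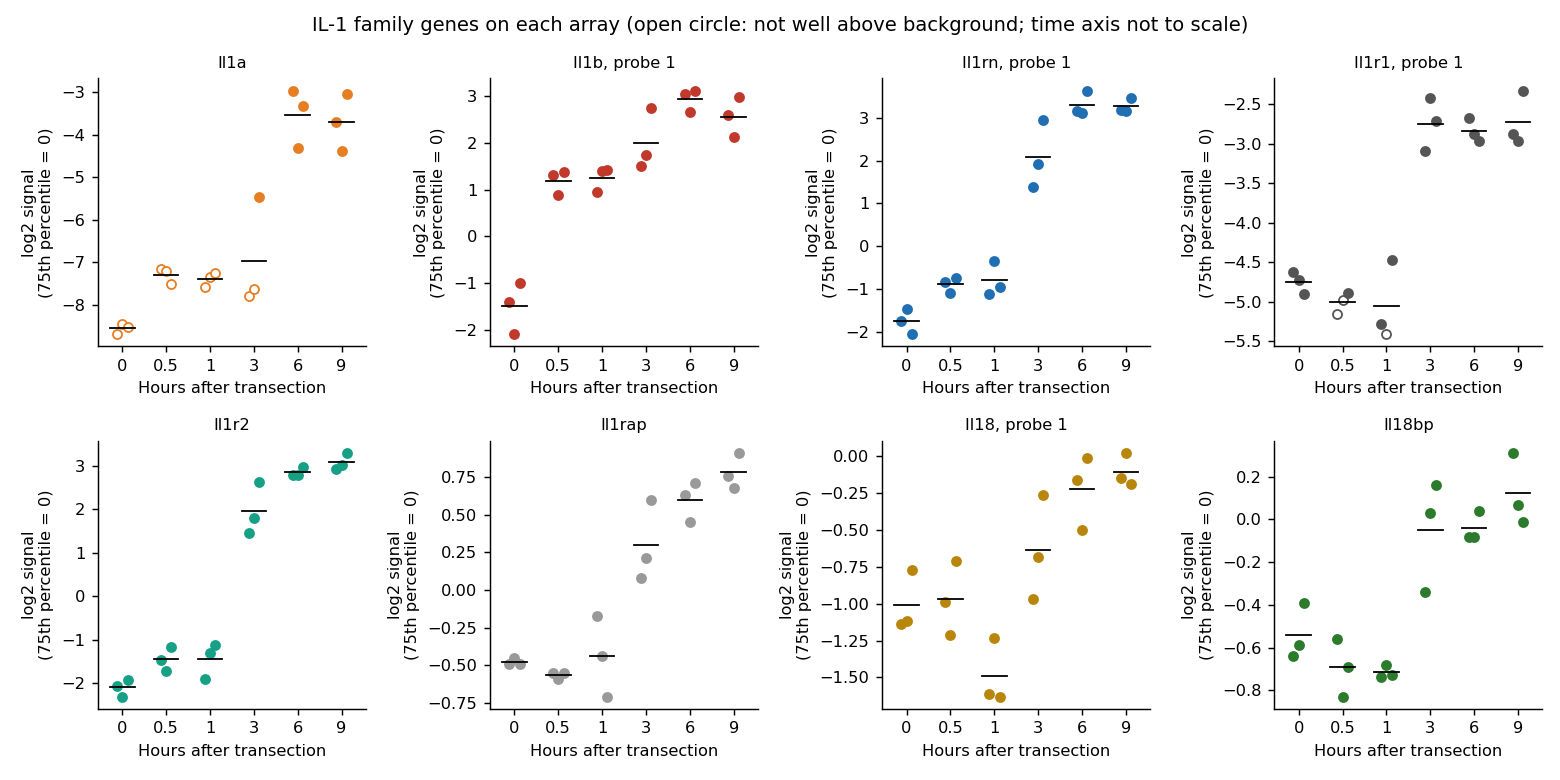
Log2 signal of 8 IL-1 family genes on each of the 18 arrays against hours after transection. Circles are arrays (open where the probe was not well above background) and lines are means of 3 arrays; Il1b stood apart from 0 h already at 0.5 h, whereas Il1rn, Il1r1 and Il1r2 had their largest step between 1 h and 3 h.

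Il1b, which encodes the precursor of IL-1β, had the largest early change among the members measured at 0 h. Its brighter probe read -1.40, -2.09 and -0.99 on the 3 arrays of 0 h, and 1.31, 0.88 and 1.37 at 0.5 h. At 1 h it read 0.95, 1.39 and 1.41, and at 3 h 1.5, 1.74 and 2.74. The 6 h arrays read 3.04, 2.66 and 3.12 and the 9 h arrays 2.59, 2.12 and 2.98. Every later array thus lay above all 3 arrays of 0 h, and arrays of 0.5 h and 1 h overlapped, as did those of 3, 6 and 9 h. The log2 change against 0 h was 2.68 at 0.5 h (95% interval 1.97 to 3.39), a 6.41-fold difference. The change was 2.74 at 1 h and 3.49 at 3 h, and it was highest at 6 h, at 4.43 (3.72 to 5.15), or 21.6-fold. The other Il1b probe, which was printed on 10 spots of each array, gave 2.99, 2.80, 3.51, 4.6 and 4.22 at the 5 later time-points. The step from 0 h to 0.5 h lay within 1 scan day, and from 1 h to 6 h the brighter probe moved by a further 1.69 (SE 0.33).

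Il1a, the gene of IL-1α, was measured late only. Its probe was not well above background on any array of 0 h, 0.5 h or 1 h, and at 3 h it was so on replicate 3 alone, at -5.46. At 6 h it read -2.96, -4.31 and -3.33, and at 9 h -3.69, -4.37 and -3.04, well above background on all of them. Taken against the lowest measurable signal at 0 h, Il1a was at least 7.87-fold higher at 6 h and at least 7.01-fold higher at 9 h. Against the 1 h arrays, scanned with those of 6 h, it was at least 3.97-fold higher at 6 h. Whether Il1a changed before 6 h was not measurable on these arrays.

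Il1rn, the antagonist, changed little in the first hour and steeply by 3 h. Its brighter probe read -1.73, -1.46 and -2.04 at 0 h and -0.84, -1.08 and -0.73 at 0.5 h. Its 1 h arrays read -1.10, -0.34 and -0.94. At 3 h it read 1.39, 1.93 and 2.95. The 6 h arrays read 3.16, 3.11 and 3.63 and the 9 h arrays 3.17, 3.16 and 3.45. Arrays of 0.5 h and 1 h overlapped each other but not those of 0 h, and those of 6 h and 9 h overlapped each other but not those of 3 h. The log2 change was 0.86 at 0.5 h (0.18 to 1.54), 0.95 at 1 h, 3.83 at 3 h (3.16 to 4.51) and 5.04 at 6 h (32.8-fold), with 5.0 at 9 h. The step from 1 h to 3 h was 2.89 (SE 0.32). The highest array of 3 h was replicate 3, and without it the change at 3 h was 3.40. The other Il1rn probe, which also crosses an exon junction, was not well above background before 3 h. It was so on 2 of 3 arrays at 3 h, and was at least 6.88-fold higher at 6 h than at 0 h.

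Il1r2, the decoy receptor, changed nearly in step with Il1rn. It read -2.07, -2.31 and -1.92 at 0 h and -1.47, -1.73 and -1.16 at 0.5 h. Its 1 h arrays read -1.91, -1.31 and -1.12. At 3 h it read 1.46, 1.81 and 2.63. Arrays of 6 h read 2.80, 2.79 and 2.97 and the 9 h arrays 2.93, 3.03 and 3.29. All arrays of 3 h and later lay above all arrays of 1 h and earlier, by a step of 3.42 (SE 0.26) from 1 h to 3 h. The log2 change was 0.64 at 0.5 h (0.08 to 1.21), 4.07 at 3 h (3.50 to 4.64), 4.95 at 6 h and 5.18 at 9 h (4.62 to 5.75), the last a 36.3-fold difference.

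**Figure D2:**
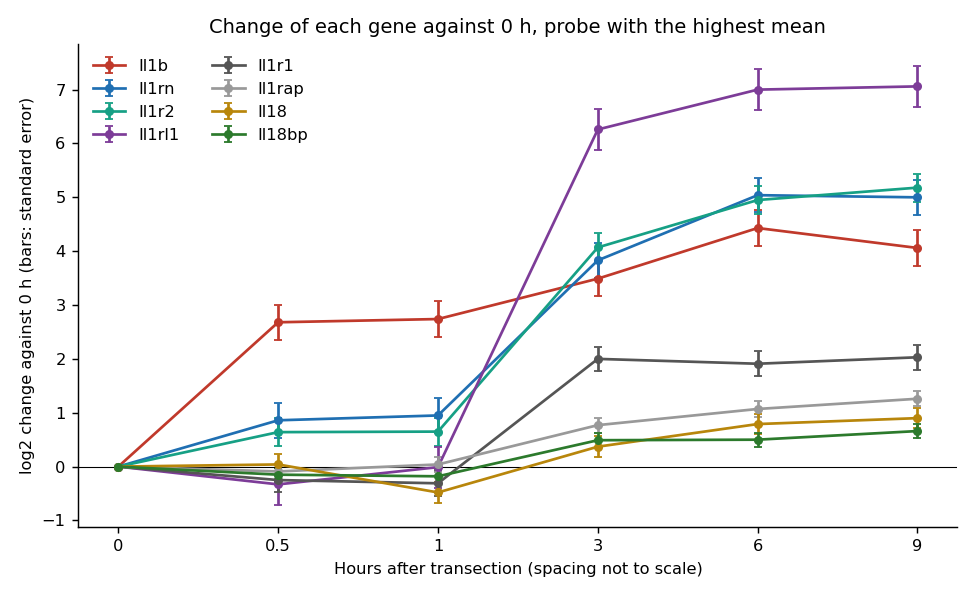
Log2 change against 0 h (vertical axis, bars are limma's standard errors) at each time-point for the probe with the highest mean of 8 genes; Il1a is left out because it was not well above background at 0 h. Il1b stands alone at 0.5 h and 1 h, and from 3 h Il1rl1, Il1rn and Il1r2 lie above it.

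Il1r1, the signaling receptor, changed less than its decoy. Its brighter probe read -4.62, -4.73 and -4.90 at 0 h and -3.09, -2.43 and -2.72 at 3 h. The 6 h arrays read -2.68, -2.88 and -2.97 and the 9 h arrays -2.88, -2.97 and -2.33. At 0.5 h it was well above background on 1 of 3 arrays and at 1 h on 2 of 3, with readings between -5.41 and -4.48 that overlapped those of 0 h. The log2 change was 2.0 at 3 h (1.5 to 2.51), or 4.01-fold, 1.91 at 6 h and 2.03 at 9 h, with no order among these 3 time-points beyond their spread. From 1 h to 3 h the step was 2.31 (SE 0.23). With normexp background correction, which takes the background from the local signal instead, the change was 1.08 at 6 h and 1.11 at 9 h. The second Il1r1 probe was dim until 1 h and was at least 3.09-fold higher at 6 h.

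Il1rap, the partner that IL1R1 and the IL-33 receptor share, changed by small and closely measured amounts. It read -0.49, -0.45 and -0.49 at 0 h and -0.55, -0.59 and -0.55 at 0.5 h. At 1 h it read -0.17, -0.44 and -0.71 and at 3 h 0.08, 0.21 and 0.60. Those of 6 h read 0.63, 0.45 and 0.71 and the 9 h arrays 0.76, 0.68 and 0.91. From 3 h on no array overlapped those of 0 h or 1 h. The log2 change was 0.77 at 3 h (0.47 to 1.08), 1.07 at 6 h and 1.26 at 9 h (0.96 to 1.56), or 2.39-fold. The step from 1 h was 0.74 at 3 h and 1.22 at 9 h (SE 0.14).

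Il1rl1 had the largest change among the members measured at 0 h, with its variant 1 probe. That probe read -3.82, -3.26 and -4.56 at 0 h and -4.35, -4.33 and -3.95 at 0.5 h. Its 1 h arrays read -4.39, -3.37 and -3.91, and these 3 time-points overlapped. At 3 h it read 1.70, 2.51 and 2.93. The 6 h arrays read 3.2, 3.06 and 3.10 and the 9 h arrays 2.94, 2.77 and 3.82, and the probe was well above background on all 18 arrays. The log2 change was -0.33 at 0.5 h (-1.14 to 0.48) and -0.01 at 1 h (-0.82 to 0.80). It was 6.26 at 3 h (5.45 to 7.07), or 76.8-fold, 7.0 at 6 h (128-fold) and 7.06 at 9 h (133.5-fold). From 1 h to 3 h, within 1 scan day, the step was 6.27 (SE 0.38, and 0.32 with the arrays of that day alone). With normexp background correction the change was 5.34 at 3 h.

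The variant 2 probe of Il1rl1 did not share that step. It read -4.51, -4.70 and -5.04 at 0 h, and -2.99, -5.90 and -4.06 at 0.5 h, where replicate 2 was not well above background. At 1 h it read -5.91, -5.27 and -4.08, with replicate 1 not well above background, and at 3 h -5.06, -4.20 and -3.60. It read -3.75, -4.38 and -3.88 at 6 h and -4.02, -4.09 and -3.01 at 9 h, above all 3 arrays of 0 h at both of these time-points. Its log2 change was 0.47 at 3 h (-0.88 to 1.82), 0.75 at 6 h (-0.60 to 2.10) and 1.05 at 9 h (-0.30 to 2.40), and each of these intervals held 0. The difference between the variant 1 and variant 2 probes, taken array by array, moved against 0 h by 5.79 at 3 h (SE 0.61), 6.25 at 6 h and 6.01 at 9 h. On the arrays of 3 h it was 6.76, 6.71 and 6.53, against 0.70, 1.44 and 0.48 at 0 h. With normexp background correction it moved by 4.22 at 3 h.

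**Figure D3:**
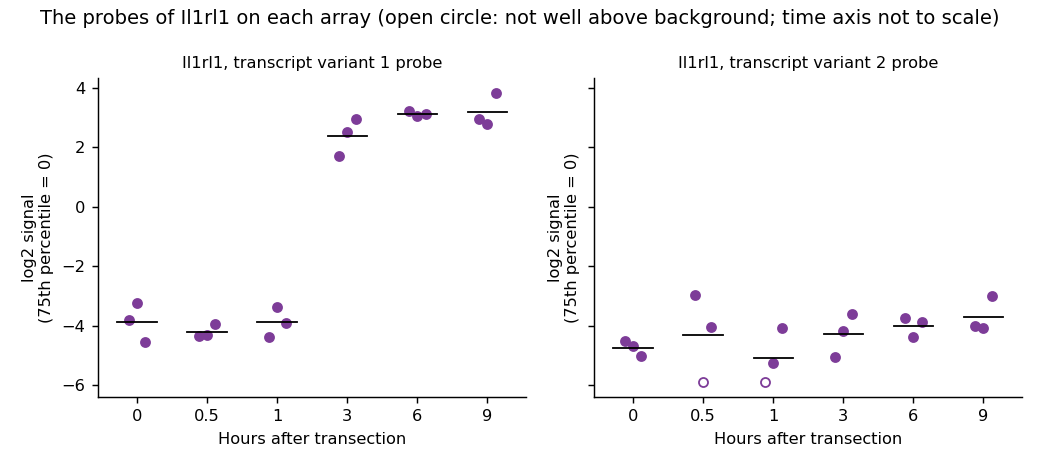
Log2 signal of the Il1rl1 variant 1 probe (left) and variant 2 probe (right) on each array against hours after transection, on 1 shared axis. Open circles were not well above background and lines are means of 3 arrays; the variant 1 probe steps up between 1 h and 3 h, and the variant 2 probe stays between -5.91 and -2.99.

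Il18, a ligand that many resting cells already make, and its binding protein moved within a narrow range. The brighter Il18 probe read -1.14, -1.12 and -0.77 at 0 h and -1.61, -1.23 and -1.63 at 1 h, where all arrays lay below those of 0 h, with a log2 change of -0.48 (-0.90 to -0.07). The second Il18 probe gave -0.41 at 1 h (-0.96 to 0.14), which became 0.35 with normexp background correction. At 6 h the brighter probe read -0.16, -0.50 and -0.01, and at 9 h -0.15, 0.02 and -0.19. Its change was 0.79 at 6 h and 0.90 at 9 h (0.49 to 1.31), and that of the second probe 1.02 and 1.39. From 1 h the brighter probe moved by 0.86 to 3 h and by 1.27 to 6 h (SE 0.19). Il18bp read -0.64, -0.59 and -0.39 at 0 h and 0.31, 0.07 and -0.01 at 9 h, a change of 0.66 (0.39 to 0.93). Its readings at 3, 6 and 9 h overlapped one another and lay above those of 0 h. Its step from 1 h was 0.67 at 3 h and 0.84 at 9 h (SE 0.13).

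The F-test over time-points called all 9 genes, where 36.3% of all gene names were called. A probe was called at an unadjusted P-value under 0.01 and an adjusted P-value under 0.05. The contrasts with 0 h called 2 of 9 higher at 0.5 h (4.7% of all gene names), 1 at 1 h (3.89%), 7 at 3 h (7.7%), then all 9 at 6 h (13.1%) and all 9 at 9 h (17%). The call besides Il1b at 0.5 h was the second Il1rn probe, which was not well above background at 0 h or 0.5 h, and with 1 probe per gene, or with any of 7 other alternatives, the count was 1, and with 2 others it was 3. Leaving out single arrays mostly gave 1 too, and 3 without 3 h replicate 3. The genes not called at 3 h were Il1a and Il18, and with the replicate block all 9 were called. With limma none was called lower at 0.5 h (1.92% of all gene names), 1 h (2.21%), 3 h (7.07%), 6 h (13.5%) or 9 h (15.9%), and 1, Il18 at 1 h, was lower at an unadjusted P-value under 0.05. Since the genes were chosen with these values known, the counts describe them and nothing is read from them. Il1a and the dimmer probes of Il1rn and Il1r1 were tested only because they were well above background at 6 h or 9 h, so the filter itself favored a difference.

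The balance between agonist and antagonist was followed as a difference between probes on the same array, of which only the movement over time is read. The difference Il1b minus Il1rn was 0.33, -0.63 and 1.05 on the arrays of 0 h, and 2.15, 1.96 and 2.10 on those of 0.5 h. At 1 h it was 2.05, 1.73 and 2.35 and at 3 h 0.11, -0.19 and -0.21. The 6 h arrays gave -0.11, -0.45 and -0.51 and the 9 h arrays -0.59, -1.04 and -0.47. It therefore moved toward the agonist by 1.82 at 0.5 h and 1.80 at 1 h (SE 0.33), on arrays that did not overlap those of 0 h, and was -0.34, -0.60 and -0.94 from 0 h at 3, 6 and 9 h, on arrays that did overlap. The spread at 0 h was the widest, and 0 h replicate 2 set much of it. Without that array the movement was 1.38 at 0.5 h, -0.78 at 3 h and -1.38 at 9 h, and without 0 h replicate 3 it was 0.06 at 3 h.

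Il1b minus Il1r2, the ligand against its decoy, followed the same course with less spread. It moved by 2.04 at 0.5 h and 2.09 at 1 h (SE 0.19), then by -0.58, -0.52 and -1.13 at 3, 6 and 9 h. Arrays of 3 h and 9 h lay below all 0 h arrays, and those of 6 h overlapped them. The 1 h arrays gave 2.86, 2.70 and 2.53 and the 3 h arrays 0.04, -0.07 and 0.11, with a wide gap between them. Il1r1 minus Il1r2, the signaling receptor against its decoy, moved toward the decoy throughout. It moved by -0.90 at 0.5 h and -0.96 at 1 h (SE 0.29), and by -2.07, -3.04 and -3.16 at the 3 later times, with no overlap with 0 h at any of these times. The first of these values rest on Il1r1 arrays partly not well above background, and with normexp background correction the movement was -0.06 at 1 h and -3.69 at 6 h. The mean of Il18 minus Il18bp moved by between -0.30 and 0.29 from 0 h (SE 0.15). Its 1 h arrays, at -0.87, -0.55 and -0.90, lay below those of 0 h, at -0.49, -0.53 and -0.38, and arrays of the other times overlapped 0 h.

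**Figure D4:**
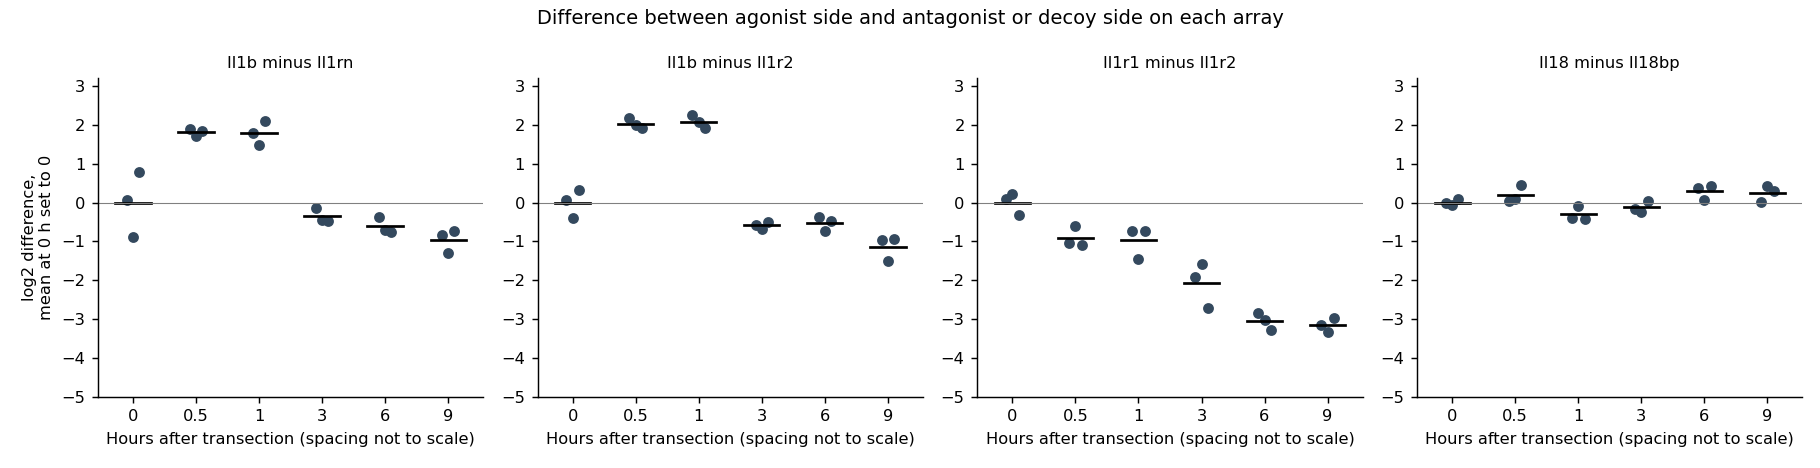
Log2 difference between probes on each array, with the mean at 0 h set to 0, for Il1b minus Il1rn, Il1b minus Il1r2, Il1r1 minus Il1r2 and Il18 minus Il18bp against hours after transection. Circles are arrays and lines are means of 3 arrays; both Il1b differences are near 2 at 0.5 h and 1 h and below 0 from 3 h on, and Il1r1 minus Il1r2 falls to -3.16 at 9 h.

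The genes most like each of 4 members were sought among 13454 gene names with a listed symbol, by the root mean square difference of the log2 changes over the 5 later time-points. These are descriptions over 6 time-points that share the same arrays. The gene nearest to Il1rn was Il1r2, and the gene nearest to Il1r2 was Il1rn, at a difference of 0.21. Next for both came Prss22, which was not well above background at 0 h, and Cxcr2, the chemokine receptor of neutrophils, which was so on 1 array of 0 h. Cxcr2 differed from Il1rn by 0.27 and from Il1r2 by 0.43. Nearest to Il1b were Camp (0.52), which encodes a granule peptide of neutrophils, and Nlrp12 (0.53), an intracellular sensor of myeloid cells. Camp and Nlrp12 were well above background on 1 array of 0 h each. Il1rl1 had no close neighbor. The nearest were Ucn2 (0.61), a peptide of the corticotropin-releasing family, Fosl1 (0.89), a partner of Jun in AP-1, and the protease Mmp3 (1.1). Fosl1 was already 1.84 higher at 1 h, when Il1rl1 variant 1 stood at -0.01.

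Of 9 neutrophil markers, 7 were tested and the F-test called 6, beside 36.3% of all gene names. The contrasts called 2 of the 7 higher at 0.5 h (4.7% of all gene names) and 6 at 3 h (7.7%), with none lower by limma at either time (none at an unadjusted P-value under 0.05), and 3 of the 7 were tested only because a later time-point passed the filter. Their summed signal, in units of the 75th percentile of an array, was 0.356 to 0.577 at 0 h, 1.94 to 4.23 at 0.5 h and 1.96 to 3.86 at 1 h. It was 7.07 to 20.9 on the 3 h arrays, 13.6 to 21.2 on the 6 h arrays and 16.8 to 20.2 on the 9 h arrays. S100a8, a calcium-binding protein abundant in neutrophils, was 3.12 higher on the log2 scale at 0.5 h, 2.90 at 1 h and 5.11 at 3 h. At 0 h, 3 of the 9 markers were not well above background on any array. Of 9 markers of monocytes and macrophages the F-test called 8, in both directions, and the contrast at 9 h called 4 higher (17% of all gene names) and 1 lower (15.9%). Cd14, a receptor for bacterial products, was 2.15 higher at 9 h, and Adgre1, a macrophage surface receptor, changed by -0.91. The summed signal of the 9 was 46.9 to 53.5 at 0 h, 46.3 to 58.0 at 0.5 h and 36.6 to 44.4 at 1 h. It was 54.4 to 94.2 on the 3 h arrays, 74.7 to 112 on the 6 h arrays and 106 to 132 on the 9 h arrays. All 9 of these were well above background at every time-point. The part of either cell type in the values of the IL-1 genes was not tested.

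The tissue and the other cell types were checked by their markers. All 8 SC markers, the defining genes of nerve, were well above background at every time-point, and their sum was 846 to 1007 on the 0 h arrays, and 662 to 757 on the 9 h arrays. The F-test called 4 of the 8 (36.3% of all gene names) and the contrast at 9 h called 4 lower (15.9%). The contrast at 6 h called 3 lower (13.5%) and 1 higher, S100b (1.08, beside 13.1%). The F-test called all 5 fibroblast markers, beside 36.3% of all gene names, with a sum of 831 to 930 at 0 h and 593 to 659 at 9 h. The contrast at 9 h called 4 of them lower (15.9% of all gene names). At 6 h the contrast called 2 lower (13.5%) and 1 higher, Pdgfra (0.35, beside 13.1%), which changed by 0.28 at 9 h. The F-test called 3 of 6 endothelial markers, beside 36.3% of all gene names, with a sum of 51.95 to 56.95 at 0 h and 38.11 to 39.36 at 9 h. The contrast at 9 h called 2 of them lower (15.9%) and that at 0.5 h 1 higher (4.7%). Of 3 tested T cell markers the F-test called 2, and the contrast at 9 h called 2 higher (17%). Among these 3, 1 was tested only because a later time-point passed the filter. Of 8 mast cell markers, the cells best known for the IL-33 receptor at rest, limma's F-test called none (1 at an unadjusted P-value under 0.05) and the contrast at 6 h called 1 lower, Ms4a2 (-0.91), beside 13.5% of all gene names. Their sum was 20.2 to 24.3 on the 0 h arrays and lay below that range on all 1 h arrays (15.3 to 19.2) and all 6 h arrays (16.1 to 19.6). It was 12.8 to 24.3 on the 3 h arrays. The skeletal muscle markers, of which limma's F-test called none of 4 (none at an unadjusted P-value under 0.05), had a sum of 50.5 to 830.1 on the 0 h arrays, which held the highest sum of all arrays and lay above all 1 h arrays (1.19 to 46.6). The lowest sum of any array was 0.833 at 6 h. The F-test called 1 of 4 adipocyte markers. The part of these cell types in the values of the IL-1 genes was not tested either.

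Of 56 further genes of the IL-1 pathway, 52 were on the array and 47 were tested, of which the F-test called 29, against 36.3% of all gene names. Of the 47, 9 were not well above background on all 0 h arrays and were tested only because a later time-point was. That filter favored a difference, and the F-test called 7 of these 9. No P-value is given for them. Of the other 38 the F-test called 22. The contrasts called 11 of 47 higher at 0.5 h (4.7% of all gene names), among them Il1rl2 and Csf3, which were dim at both times, 9 at 1 h (3.89%) and 23 at 3 h (7.7%). They called 26 higher at 6 h (13.1%) and 28 at 9 h (17%). With limma none was lower at 0.5 h (1.92% of all gene names, 2 at an unadjusted P-value under 0.05) or 1 h (2.21%, 5 at that level). The contrasts called 2 lower at 3 h (7.07%), then 1 each at 6 h (13.5%) and 9 h (15.9%). The median log2 change of the 47 was 0.09, 0.22, 0.41, 0.71 and 0.71 at the 5 later time-points, beside 0 to 0.02 over all genes. With genes that were dim at 0 h set to their lower bound the medians were 0, 0.14, 0.41, 0.71 and 0.70. With normexp background correction 16 were called in the F-test, and 15 higher at 9 h. The P-values given for single pathway genes are adjusted ones of the F-test over all 6 time-points, not of the change beside them, unless a contrast is named.

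The F-test called 2 of 3 tested ligand genes, beside 36.3% of all gene names. Il33, the ligand of the Il1rl1 product and an alarm signal kept in the nucleus, had 2 tested probes that differed in course. The probe with the higher mean over all arrays changed by -0.18 at 0.5 h and 0.61 at 9 h (F-test adjusted P-value = 0.00181), with all 3 arrays of 9 h above all of 0 h. The other probe changed by 0.55 at 0.5 h and 0.97 at 6 h, both called as higher, and by 1.54 at 9 h (F-test adjusted P-value = 1.68e-05). Il36b changed by 2.35 at 6 h, though it was well above background on only 1 array of 0 h. Of 3 tested receptor genes the F-test called 2. Il1rl2, the IL-36 receptor, was well above background on no array before 3 h and on 2 at 3 h, and was at least 2.46-fold higher at 6 h than at 0 h. Sigirr, an inhibitory member of the receptor family, changed by 0.51 at 6 h and 0.65 at 9 h (F-test adjusted P-value = 0.00308).

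Of 9 tested genes that process IL-1β and IL-18 the F-test called 3, beside 36.3% of all gene names. Nlrp3, the sensor of the inflammasome, changed by 0.35 at 3 h and 1.60 at 6 h (F-test adjusted P-value = 0.000353), and was well above background on no array of 0.5 h or 1 h. Nlrc4 changed by 1.14 at 9 h (F-test adjusted P-value = 0.00448) and the channel gene Panx1 by 1.36 at 3 h (F-test adjusted P-value = 6.69e-05). Casp1, the enzyme that cleaves both precursors, changed by -0.57 at 1 h and 0.22 at 9 h, and neither the F-test nor any contrast called it. The contrast at 3 h, which called 7.7% of all gene names higher and 7.07% lower, called 3 genes that the F-test did not. They were Pycard (-0.61, adjusted P-value of the limma contrast = 0.0247), the adaptor of the inflammasome, Gsdmd (-0.43, 0.0251), the pore protein through which IL-1β leaves, and Casp4 (0.42, 0.0205), an inflammatory caspase. The second Pycard probe gave 0.40 at 3 h and was not called.

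Of 18 tested signaling genes the F-test called 9, beside 36.3% of all gene names. Myd88, the first adaptor, changed by 0.84 at 3 h and 1.17 at 6 h (F-test adjusted P-value = 0.000392), and the kinase gene Irak4 by 1.26 at 6 h (F-test, 0.000282). Irak3, an IRAK that inhibits the pathway, changed by 1.06 at 6 h (F-test, 0.00262), and Nfkb1 by 0.56 at 6 h (F-test, 0.00191). Tab1 changed by -0.55 at 9 h (F-test, 0.00397), and all 3 arrays lay below all of 0 h, while its second probe gave 0.52 and was not called. Fadd was also called, and Tab1, Tollip, Peli1 and Peli2 were called with 1 of 2 probes each. The called Peli1 probe changed by 1.15 at 0.5 h. The F-test did not call Irak1, Irak2, Traf6, Map3k7, Ikbkb, Ikbkg, Chuk, Tab2 or Rela, of which the contrast at 3 h called Traf6 (0.41, adjusted P-value of the limma contrast = 0.0405).

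Of 14 tested genes known as targets of IL-1 signaling, the F-test called 13, or 8 of the 9 that did not pass through a later time-point alone, beside 36.3% of all gene names. The contrast at 3 h called all 14 higher (7.7% of all gene names), among them the 5 that passed the filter only through a later time-point. The gene that the F-test did not call, Lif, changed by 1.24 at 3 h and 1.29 at 9 h, and the contrasts from 1 h on called it. Its 0 h arrays read -4.96, -3.25 and -3.35, so that replicate 1 enlarged these changes. Cxcl2, a chemokine that draws neutrophils, was 7.20 higher on the log2 scale at 0.5 h and 8.11 at 6 h (F-test adjusted P-value = 3.14e-10), and Cxcl1 5.57 and 5.57 (F-test, 4.83e-10). Il6, not well above background at 0 h, was at least 13.6-fold higher at 0.5 h and at least 129.3-fold higher at 6 h. Nfkbiz and Nfkbia, feedback genes of NFκB, had their largest changes in the first hour. Nfkbiz changed by 3.26 at 0.5 h and 1.39 at 9 h (F-test, 3.17e-06). Nfkbia changed by 1.83 at 1 h (F-test, 9.53e-05) and by 0.19 at 9 h, where the contrast did not call it. Ptgs2, the inducible enzyme of prostaglandin synthesis, changed by 2.80 at 0.5 h and 1.42 at 9 h (F-test, 8.03e-05).

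Other targets had their larger changes from 3 h on. Ccl2, which draws monocytes, changed by 2.61 at 0.5 h and 5.08 at 3 h (F-test adjusted P-value = 2.15e-08). Mmp3 changed by 0.51 at 1 h and 4.84 at 3 h, and Mmp9 by 4.66 at 9 h, each well above background on 1 array of 0 h. Csf3, the growth factor of neutrophils, was not well above background until 3 h, when it was at least 11.2-fold higher than at 0 h, and it was at least 2.23-fold higher at 9 h. Nos2 was at least 4.07-fold higher at 6 h. Icam1 changed by 1.66 at 6 h (F-test, 2.54e-05) and Lcn2 by 0.76 (F-test, 0.0009). On all 3 arrays of 9 h, all of these targets except Nfkbia lay above all of their arrays of 0 h. Of them, Csf3, Il6, Mmp3, Mmp9 and Nos2 had passed the filter only through a later time-point.

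**Figure D5:**
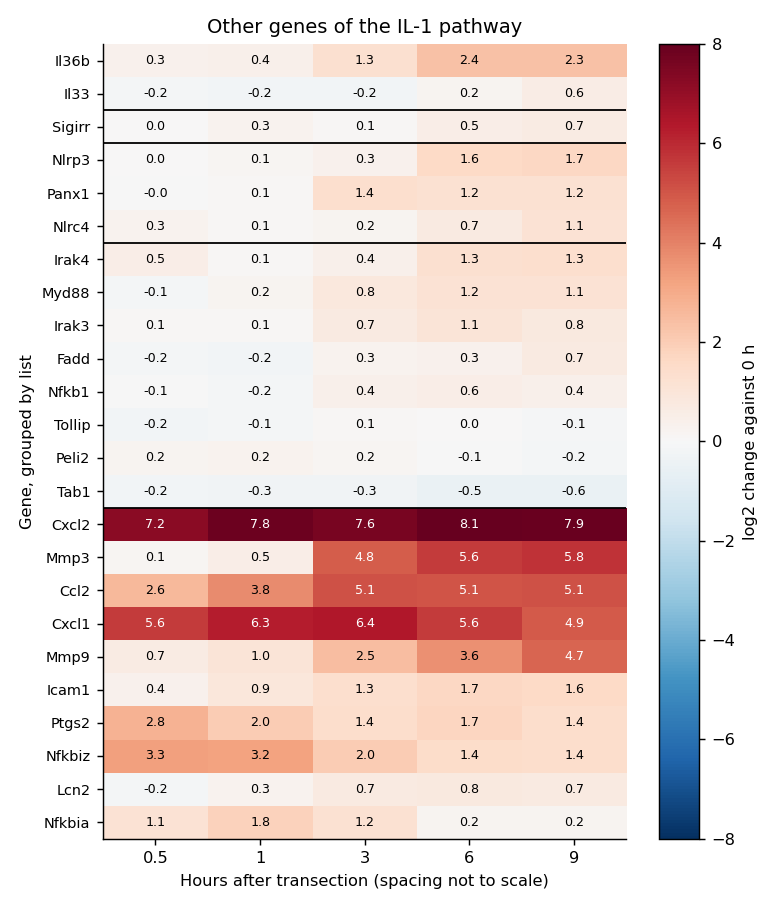
Log2 change against 0 h (color and printed value) at 5 time-points for 24 further genes of the IL-1 pathway that the F-test called, in rows grouped by list (ligands, receptors, inflammasome, signaling, targets). Called genes that were dim at 0 h, and Peli1, whose called probe is not the one with the highest mean, are left out; Cxcl1, Cxcl2, Nfkbiz and Ptgs2 are high from 0.5 h, and Mmp3 and Mmp9 from 3 h.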

How the data were processed

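The authors deposited the scanner output of 18 one-color Agilent arrays, in which the processed signal is a linear intensity, background-subtracted and detrended by Feature Extraction (version 10.5.1.1 in the files). They also deposited a matrix of quantile-normalized log2 values. Samples were grouped by the time in their labels. Here each array's 75th percentile was subtracted from its log2 intensity, without control and outlier spots, and spots of a probe were averaged. A probe was tested where all 3 arrays of some time-point had it well above background (32111 of 41012). All arrays were fitted in 1 limma model (moderated F-test, contrasts with 0 h, Benjamini-Hochberg adjustment over all tested probes), which was also tested on simulated data. A gene was called if any probe was, and the probe with the highest mean was reported first. Lower bounds used, per array, the lowest signal well above background.

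The 9 genes, the pathway genes and the marker lists were chosen with earlier results of these data known, so the 9 genes were not tested beyond counts. Pathway genes were given with values where the F-test called them. Casp1, Casp4, Pycard, Gsdmd, Traf6 and Lif were added after their values were seen. No spot was saturated, and 58 to 179 outlier spots were left out per array. The number of arrays limits the precision. Coordinates are on rn4 as the files list them. R 4.3.3 and limma 3.58.1 were used. The alternatives were other background corrections, normalizations, filters, blocks, priors, thresholds and sets of arrays. The option without the 3 arrays brightest over background was chosen after seeing the data.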

Additional observations from a re-analysis of the deposited data

How the results depend on the processing

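All 9 genes remained called in the F-test under every alternative run for it except normexp background correction, which called 7 of 9, and the restriction to probes well above background on all 18 arrays, under which 7 were tested and 7 called. Contrasts with 0 h called 5 to 9 of them higher at 3 h and at least 6 at the 2 later times. At 0.5 h the reported count of 2 became 1 with normexp, quantile normalization, the authors' matrix, all probes tested however dim, the restriction to probes well above background on all arrays, the trend and robust prior, 1 probe per gene and the replicate block, and 3 with only the 6 arrays of the contrast or without the 3 arrays brightest over background, and it ranged from 1 to 3 when 1 array was left out. At 1 h the reported count of 1 became 3 with only the 6 arrays of the contrast and 3 without the 3 arrays brightest over background, and ranged from 1 to 2 when 1 array was left out. Of the further pathway genes, normexp called 16 in the F-test in place of 29, and 6, 10, 12 and 15 in place of 11, 23, 26 and 28 higher at 0.5, 3, 6 and 9 h. The other differences over 1.5 times were 15 higher at 3 h with scan day as a random block or with only the 6 arrays of the contrast, 17 at 6 h among the 32 genes well above background on all arrays, and 14 at 1 h without the 3 brightest arrays. The F-test was not run with only the 6 arrays of a contrast. The movement of Il1b minus Il1rn was 1.76 to 1.85 at 0.5 h, with -1.06 to -0.90 at 9 h, under the other settings, of which a shift to the median and the replicate block cannot move it. When 1 array was left out it ranged from 1.38 to 2.22 at 0.5 h, 1.36 to 2.20 at 1 h, -0.78 to 0.06 at 3 h, -1.04 to -0.21 at 6 h and -1.38 to -0.55 at 9 h. No called change of a member reversed. The cause of these differences was not tested.

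Replicate numbers were shared between time-points, but no label says that a number marks a shared rat, litter or day. Of 45 pairs of arrays with the same number, 22 had residuals correlated above 0.1 (range -0.26 to 0.56). Of the 18 arrays, 10 correlated best with their own number. These values do not settle whether the numbers pair the arrays. With the replicate block 31 pathway genes were called in the F-test, and 9 members in place of 7 were called higher at 3 h. The block changed no reported count by over 1.5 times apart from that at 0.5 h.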
